A study of Mus musculus with 6 samples.

Results

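Skeletal muscle sarcomere genes are the genes of the contractile filaments of striated muscle and of the calcium and energy machinery around them. The 34 genes described here were taken from a fixed list of symbols, and all 34 had a row among the 17854 genes measured. They were read as a check for muscle RNA in cells that had been sorted from knee cartilage. Bulk RNA sequencing compared 3 libraries of Tomato+ cells derived from injected mesenchymal stromal cells (MSCs) with 3 libraries of endogenous Tomato+ cells, from 3 mice per group. The MSC-derived cells came from the repaired articular cartilage of C57BL/6 mice with knee osteoarthritis after transection of the anterior cruciate ligament, which had been injected with Prrx1-lineage MSCs of inguinal white adipose tissue. The endogenous cells came from the articular cartilage of Prrx1-Cre; R26-tdTomato mice of matching age and sex, which are not described as operated or injected. All libraries are labelled male, C57BL/6 and chondrocyte, and the ages are not given in the labels. The sorted cells of both groups carry Prrx1-Cre and the R26 tdTomato reporter, in one of them through the donor cells. Cre driven by Prrx1, a gene of limb mesenchyme, switches on tdTomato permanently, so that all descendants of Prrx1-expressing cells stay red, and sorting was on Tomato alone after collagenase digestion of knee cartilage. Osteoarthritis, surgery, injection and cell origin all differ between the groups and cannot be told apart.

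The sarcomere is the repeating unit of striated muscle, in which thick filaments of myosin pull on thin filaments of actin. Thin filaments are anchored in the Z-disc, and the troponin complex on them makes contraction depend on calcium, which is released from and pumped back into the sarcoplasmic reticulum. Fast and slow fibres use different genes for the same parts, and many of these genes are normally among the most abundant mRNAs of a muscle. How much of each gene cartilage itself expresses was not tested.

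The sarcomere genes were scarce in every library. They held 0.00590%, 0.00578% and 0.00633% of the expected counts of the MSC-derived libraries and 0.00653%, 0.00716% and 0.00716% of those of the endogenous libraries. The 95% Wilson intervals of these shares lay between 0.00548% and 0.00750% and cover counting error only. Eno3 alone gave 938, 882 and 905 of the 1450, 1349 and 1396 counts of the 34 genes in the MSC-derived libraries. In the endogenous libraries it gave 528, 494 and 539 of 1530, 1702 and 1782 counts. The shares of the MSC-derived libraries thus rest mostly on Eno3, whose direction depends on the scale, as given below. Per length the difference between the groups was larger. In TPM (a transcript level corrected for transcript length that sums to 1000000 in each library), the 34 genes together reached 38.3, 35.6 and 36.1 in the MSC-derived libraries and 103, 94.2 and 96.1 in the endogenous ones. The endogenous libraries were thus all higher, and the groups did not overlap. Of the 34 genes, 16 stayed under 1 TPM in every library, compared with 21.6% of all genes, and 9 had at most 10 counts in every library. Just 4 genes had a mean of at least 5 TPM in either group, namely Tnni2, Eno3, Des and Mylpf. In bulk libraries fewer cells of a type and less RNA per cell cannot be told apart, which applies to every level given here.

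A large share of the summed level came from 3 genes that were grouped after their values had been seen. Eno3, Tnni2 and Des gave 52.2%, 46.3% and 51.0% of the summed TPM in the MSC-derived libraries and 76.5%, 75.8% and 77.4% in the endogenous libraries. Without them, the remaining 31 genes summed to 18.3, 19.2 and 17.7 TPM in the MSC-derived cells and to 24.2, 22.8 and 21.8 TPM in the endogenous cells. The endogenous libraries were the higher ones here too. The median of all genes tested was itself shifted by -0.40 on the log2(TPM + 1) scale and -0.41 on the log2(TPM + 0.1) scale relative to the test on counts, and summed levels in TPM are not corrected for this.

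The libraries held between 22060628 and 24881796 expected counts, so 3 counts, the smallest level taken as detectable, were 0.121 to 0.136 CPM (counts scaled to a library total of 1000000). Endogenous replicate 1 stood apart, with 3449 of all genes at 0 against 1323 and 1375 in endogenous replicates 2 and 3. Among the sarcomere genes, 23 were at 0 in endogenous replicate 1 and 4 and 5 in the other endogenous libraries. There were 15 sarcomere genes at 0 in that library but counted in both of the others, and 1805 such genes in all. The labelled cell type was checked against 10 chondrocyte markers, which summed to 448 to 460 TPM in the MSC-derived libraries and to 25091 to 26598 TPM in the endogenous ones. All 10 chondrocyte markers were lower in the MSC-derived cells by edgeR's quasi-likelihood test, as were 8 of 8 osteoblast and 8 of 8 fibroblast markers, while 8 of 8 neutrophil, 8 of 8 macrophage, 8 of 8 leukocyte and 8 of 8 erythroid markers were higher. Of 8 endothelial markers 5 were higher, and of 6 adipocyte markers tested 2 were higher and 4 lower. Neutrophil markers summed to 146910 to 155599 TPM in the MSC-derived libraries and to 8158 to 11505 TPM in the endogenous ones. None of the markers of these lists but 1 of the adipocyte list was at 0 throughout a group. The part of these cell types in the values of the sarcomere genes was not tested.

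**Figure D1:**
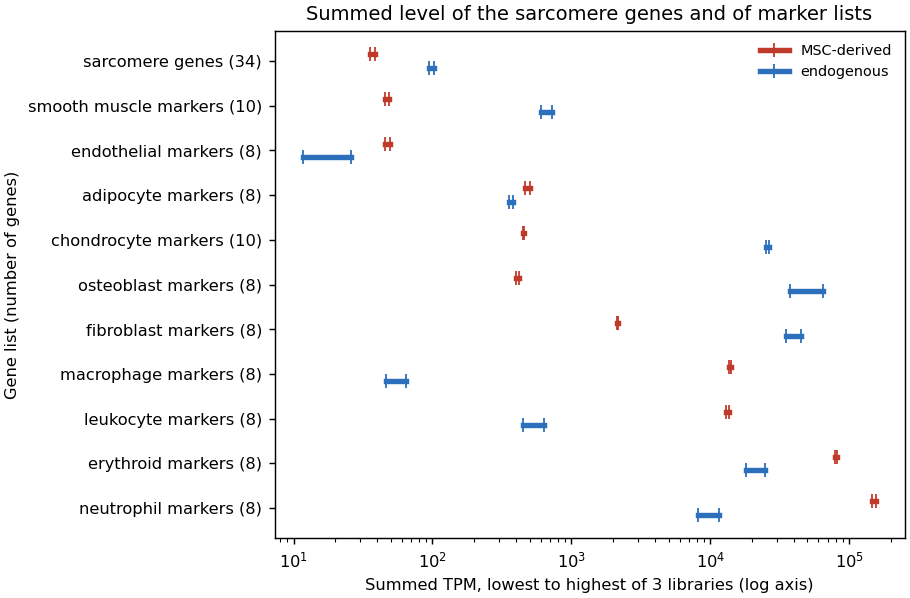
Summed TPM of the 34 sarcomere genes and of marker lists, on a log axis, with a bar from the lowest to the highest of the 3 libraries of each group. The sarcomere genes span 35.6 to 38.3 TPM in the MSC-derived and 94.2 to 103 TPM in the endogenous libraries, far below chondrocyte markers in the endogenous cells and neutrophil markers in the MSC-derived cells.

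Whether muscle transcripts differed between the groups was tested with edgeR's quasi-likelihood test on the expected counts, adjusted over 14289 genes. A positive log2 fold change is higher expression in the MSC-derived cells. Of the 34 sarcomere genes, 15 had enough counts for this test and 19 did not. DESeq2 and the fit with no filter on low counts held these 19 genes as well, and each called 2 of them, Casq1 and Myl3, and not the other 17, of which 4 had no adjusted p with DESeq2. Of the 15, 4 were lower in the MSC-derived cells (Tnni2, Des, Ldb3 and Ttn), which is 26.7% against 30.3% of all genes tested. Another 4 were higher (Eno3, Tnnt1, Myl2 and Myoz1), which is 26.7% against 31.3% of all genes tested. Tnnt1, Myl2 and Myoz1 had enough counts for the test only through the MSC-derived libraries, and Ldb3 and Ttn only through the endogenous ones. Their directions are therefore no result about the sarcomere genes as a set. Eno3 counts as higher here on the count scale. On both TPM scales with limma 3 of the 15 were higher and 4 lower, or 20.0% and 26.7%, Eno3 among the lower ones. Of all genes, 21.9% were higher and 41.7% lower on the log2(TPM + 1) scale. With 0.1 added these shares were 21.4% and 41.6%. For 10 of the 15, or 66.7%, the groups shared no range of CPM values, against 73.3% of all genes tested. The shares with edgeR and of separated CPM ranges were therefore close to the background. On the TPM scales the share of lower calls was below it. The median log2 fold change of the 15 genes was 0.51, and that of all genes tested was 0.05. All genes split into 4468 higher and 4333 lower calls, so that 50.8% of calls were higher, while on the TPM scale with limma the share was 34.4%.

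The counts of calls depended on single libraries. Without endogenous replicate 1, 9 sarcomere genes were lower and 6 higher, of 19 tested, or 47.4% and 31.6%, beside 38.6% lower and 37.8% higher of all genes in that fit. The 4 higher calls became 1 without MSC-derived replicate 1, 2 without MSC-derived replicate 2, 2 without MSC-derived replicate 3 and 2 without endogenous replicate 2. Lower calls for Tnni2, Des and Ldb3 held in every alternative fit at the threshold of 0.05. Ldb3 ranged from -3.91 to -1.28, the last on the log2(TPM + 1) scale.

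**Figure D2:**
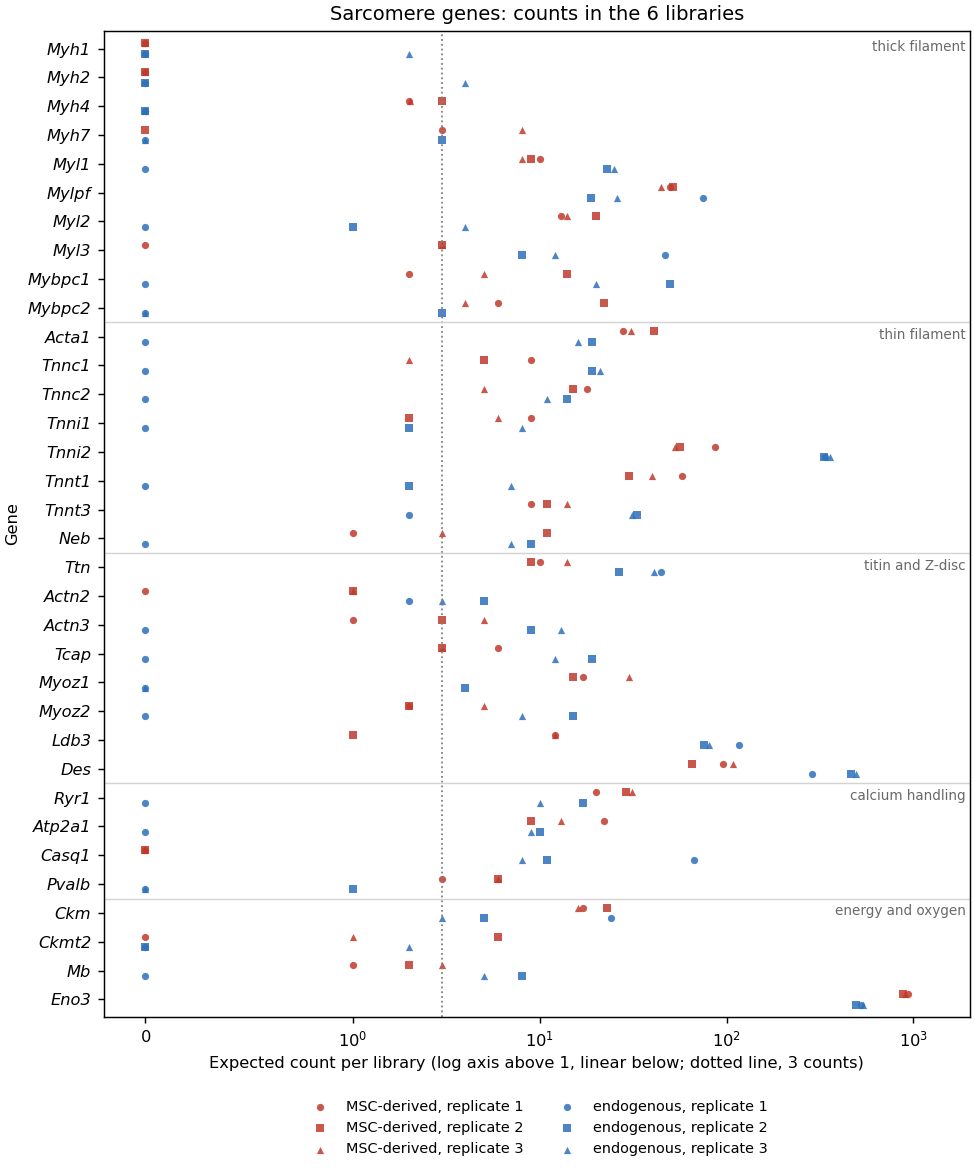
Expected count of each of the 34 sarcomere genes in the 3 MSC-derived and 3 endogenous libraries, on an axis that is logarithmic above 1 and linear below, with genes grouped by role and a dotted line at 3 counts. Tnni2, Des and Ldb3 separate the groups with endogenous libraries to the right, Eno3 with MSC-derived libraries to the right, and 23 genes sit at 0 in endogenous replicate 1.

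Sequence around the start sites is shown for 3 sarcomere genes chosen after their values had been seen. They are Des with a lower call, Eno3 with the most counts and Myh4 as a heavy chain at the floor. Each stretch runs from 250 bases before to 50 after a start site in RefSeq's GRCm38.p6 and is written from 5′ to 3′. The capitals mark CAGCTG (a core that myogenic factors bind), the core of MEF2 sites, TATAAA and the CArG box that serum response factor binds, searched on both strands, with no overlap between marked motifs.
Des, chr1:75360042-75360341, plus strand: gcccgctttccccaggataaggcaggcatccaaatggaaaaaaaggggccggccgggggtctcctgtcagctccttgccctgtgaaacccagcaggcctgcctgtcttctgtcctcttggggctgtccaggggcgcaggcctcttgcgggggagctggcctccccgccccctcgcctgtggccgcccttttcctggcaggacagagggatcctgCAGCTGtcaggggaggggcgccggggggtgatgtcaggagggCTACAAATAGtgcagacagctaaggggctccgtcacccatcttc
Eno3, chr11:70656926-70657225, plus strand: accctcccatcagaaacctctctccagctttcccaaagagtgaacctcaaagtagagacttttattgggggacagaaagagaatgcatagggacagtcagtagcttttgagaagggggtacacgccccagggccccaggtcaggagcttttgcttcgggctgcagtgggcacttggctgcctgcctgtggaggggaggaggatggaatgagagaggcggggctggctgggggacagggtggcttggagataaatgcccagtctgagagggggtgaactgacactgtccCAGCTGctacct
Myh4, chr11:67237562-67237861, plus strand: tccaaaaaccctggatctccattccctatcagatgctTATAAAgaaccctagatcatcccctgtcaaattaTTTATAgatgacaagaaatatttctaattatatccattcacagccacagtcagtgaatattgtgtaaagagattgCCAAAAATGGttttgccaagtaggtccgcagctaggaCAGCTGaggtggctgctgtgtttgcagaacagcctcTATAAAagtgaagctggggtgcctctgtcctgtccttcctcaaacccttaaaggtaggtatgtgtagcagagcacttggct

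Of the 34 genes, 28 matched an entry in the promoter table, with 35 promoters, and Tnni2 was not among them. CAGCTG was present in 51.4% of these 35 promoters and in 16.3% of all 32851 promoters of the same length. The MEF2 core was present in 14.3% and 3.69%, the CArG box in 14.3% and 1.63%, and TATAAA in 20.0% and 13.6%. Des carried CAGCTG and the MEF2 core, Eno3 carried CAGCTG alone, and Myh4 carried CAGCTG, the CArG box and TATAAA. These matches are letters in a window and describe the genes, not binding in these cells.

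Of the thick filament genes, the heavy chains were close to the limit of detection. The myosin heavy chains are the motors of muscle, and each fibre type has its own. Myh1, of fast fibres, had 0 counts in 5 libraries and 2 counts in endogenous replicate 3. Myh2, also of fast fibres, had 0 counts in the same 5 libraries and 4 counts in endogenous replicate 3. Myh4, the heavy chain of the fastest fibres, had 2, 3 and 2.01 counts in the MSC-derived libraries, against 0 in all endogenous ones. None of these 3 genes exceeded 4 counts in any library. Myh7, the slow heavy chain, had 3, 0 and 8 counts in the MSC-derived libraries, against 0, 3 and 0 in the endogenous libraries. All 4 heavy chains together came to 5, 3 and 10.01 counts and to 0, 3 and 6 counts, so that the groups overlapped. Myh1, Myh2 and Myh4 are nearly identical in sequence, and the split of reads among them is uncertain.

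The light chains sit on the myosin neck and tune the motor. Myl2 (NCBI gene 17906), the slow regulatory light chain, had 13, 20 and 14 counts in the MSC-derived libraries, against 0, 1 and 4 in the endogenous ones. The groups did not overlap, and Myl2 rose by 3.08 on the log2 scale (SE 0.95, adjusted p = 0.0243). The value was 2.48 without endogenous replicate 1 and 4.58 without endogenous replicate 3, with endogenous counts near the floor. This call was lost without MSC-derived replicate 1, 2 or 3 (adjusted p = 0.0800, 0.112 and 0.0910), without endogenous replicate 2 (0.0918), with no filter on low counts (0.0535) and with the replicate number as a block (0.0633). The RefSeq span of Myl2 overlaps Ccdc63, whose mean count was 22.3 in the MSC-derived and 2.0 in the endogenous libraries. Mylpf, the fast regulatory light chain, had 49.7, 51.6 and 44.8 counts in the MSC-derived libraries, against 74.7, 18.9 and 26.0 counts in the endogenous ones. Endogenous replicate 1 held the highest value and endogenous replicate 2 the lowest, and the difference of 0.21 (SE 0.59) did not pass the test (adjusted p = 0.772). Without endogenous replicate 1 it was 1.01 (adjusted p = 0.0277), and without endogenous replicates 2 and 3 in turn it was -0.14 and -0.04. Mylpf overlaps Septin1, with mean counts of 1009 and 295.

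Myl1, the fast essential light chain, had 10, 9 and 8 counts in the MSC-derived cells and 0, 23 and 25 in the endogenous cells. With all libraries it was not called by DESeq2 (adjusted p = 0.575) or with no filter on low counts (0.572), and without endogenous replicate 1 it was lower by a log2 fold change of -1.52 (adjusted p = 0.0147). Myl3, the slow essential light chain, had 0, 3 and 3 counts in the MSC-derived libraries, against 47, 8 and 12 in the endogenous ones. All endogenous values lay above the MSC-derived values. Myl3 was too low for the main test. It was lower with DESeq2 (adjusted p = 0.0134), with no filter on low counts (0.0480) and without endogenous replicate 2 (0.0317), but did not pass without MSC-derived replicates 1, 2 or 3 (0.0935, 0.0942 and 0.0892). Mybpc1 and Mybpc2 encode the slow and fast myosin-binding protein C, which braces the thick filament. Mybpc1 had 2, 14 and 5 counts against 0, 50 and 20, with a log2 fold change of -1.79 (SE 1.34, adjusted p = 0.281), and without endogenous replicate 1 it was lower by -2.43 (adjusted p = 0.00207). Mybpc2 had 6, 22 and 4 counts against 0, 3 and 0, and was not called by DESeq2 (adjusted p = 0.115) or with no filter on low counts (0.109). In all, the 10 thick filament genes summed to 7.16 to 9.43 TPM in the MSC-derived and 6.86 to 16.8 TPM in the endogenous libraries, with 1 higher and 2 not called of the 3 tested.

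Tnni2 (NCBI gene 21953) had the highest level of the thin filament genes in every library. It encodes the fast troponin I, the subunit that blocks contraction when calcium is low. Tnni2 had 87, 56 and 53 counts in the MSC-derived libraries, against 337, 332 and 360 counts in the endogenous ones. Every endogenous library was higher than every MSC-derived library. The level was 6.38 ± 1.56 TPM (SD, n = 3) against 47.9 ± 3.38 TPM (SD, n = 3). Tnni2 fell by 2.47 on the log2 scale (SE 0.23, adjusted p = 5.52e-05), and this value stayed between -2.91 and -2.36 in all fits.

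The other fast troponins did not pass the test. Tnnc2, the fast calcium-binding subunit, had 18, 15 and 5 counts in the MSC-derived libraries, against 0, 14 and 11 in the endogenous ones. The groups overlapped, and the difference of 0.51 (SE 1.07, adjusted p = 0.701) became -0.11 without endogenous replicate 1. Tnnt3, the fast subunit that binds tropomyosin, had 9, 11 and 14 counts against 2, 33 and 31 counts. Its log2 fold change of -1.003 (SE 0.90) did not pass the test (adjusted p = 0.364), and without endogenous replicate 1 it was -1.60 (adjusted p = 0.00714). In TPM, the endogenous level of Tnni2 was 47.9, while that of Tnnt3 was 1.86 ± 1.45 (SD, n = 3) and that of Tnnc2 was 1.18 ± 1.06 (SD, n = 3). The 3 proteins form 1 complex in fast fibres, and the source of their transcripts here was not tested.

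Among the slow troponins, Tnnt1 (NCBI gene 21955) was higher in the MSC-derived cells. It had 58, 30 and 40 counts there and 0, 2 and 7 counts in the endogenous cells, with no overlap. The log2 fold change was 3.71 (SE 0.94, adjusted p = 0.0108). It was 3.10 without endogenous replicate 1 and 5.15 without endogenous replicate 3, and the call was lost without MSC-derived replicate 1 (adjusted p = 0.0594) and without endogenous replicate 2 (0.0515). Tnnt1 reached 2.78 ± 0.83 TPM (SD, n = 3) in the MSC-derived cells. Tnnc1, the calcium-binding subunit of slow and cardiac muscle, had 9, 5 and 2 counts against 0, 19 and 21, and Tnni1, the slow troponin I, had 9, 2 and 6 counts against 0, 2 and 8. Both overlapped between the groups. With all libraries neither was called by DESeq2 (adjusted p = 0.422 for Tnnc1 and 0.745 for Tnni1) or with no filter on low counts (0.416 and 0.678). Without endogenous replicate 1, Tnnc1 was lower by -2.01 (adjusted p = 0.00785).

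Skeletal actin and nebulin, the backbone of the thin filament and its ruler, were low. Acta1 had 28.1, 40.7 and 30.9 counts in the MSC-derived libraries, against 0, 19 and 16.1 in the endogenous ones. The groups did not overlap, yet the log2 fold change of 1.44 (SE 1.01) did not pass the test (adjusted p = 0.250). Acta1 shares long stretches with other actins, so its counts are uncertain. Neb had 1, 11 and 3 counts against 0, 9 and 7. In all, the 8 thin filament genes summed to 11.6 to 16.5 TPM in the MSC-derived and to 51.9 to 55.4 TPM in the endogenous libraries.

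Of the genes of titin and the Z-disc, 3 fell and 1 rose among the 4 tested, beside 30.3% lower and 31.3% higher of all genes tested. The other 4 were too low for the main test. Ldb3 and Ttn had enough counts only through the endogenous libraries, and Myoz1 only through the MSC-derived ones. These calls are therefore no result about the Z-disc genes as a set. Des (NCBI gene 13346) encodes desmin, the intermediate filament that ties Z-discs together in skeletal, cardiac and smooth muscle. Des had 96, 65 and 108 counts in the MSC-derived libraries, against 288, 464 and 494 in the endogenous ones. The endogenous libraries were all higher, and Des fell by 2.27 on the log2 scale (SE 0.30, adjusted p = 0.000383). Its level was 1.65 ± 0.451 TPM (SD, n = 3) against 10.8 ± 2.03 TPM (SD, n = 3). Des is also a gene of smooth muscle, and 9 of the 9 smooth muscle markers tested were lower in the MSC-derived cells, among them Acta2 (log2 fold change -3.29), Tagln (-3.38) and Myh11 (-4.78). The 10 smooth muscle markers summed to 45.6 to 48.8 TPM in the MSC-derived and 608 to 721 TPM in the endogenous libraries, none of them at 0 throughout a group, and their part in the values of Des was not tested.

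Ldb3 (NCBI gene 24131), which encodes the Z-disc protein ZASP, had 12, 1 and 12 counts in the MSC-derived libraries, against 116, 76 and 81 counts in the endogenous ones. The groups were far apart, and Ldb3 fell by 3.50 on the log2 scale (SE 0.75, adjusted p = 0.00487). Ttn (NCBI gene 22138) encodes titin, the spring that spans from Z-disc to the middle of the sarcomere. It had 10, 9 and 14 counts against 44.7, 26.7 and 41.0 counts, with no overlap. Ttn fell by 1.82 on the log2 scale (SE 0.51, adjusted p = 0.0164), but its very long transcript gave a level of at most 0.07 TPM in any library. The call was lost without MSC-derived replicates 1, 2 or 3 (adjusted p = 0.0939, 0.0947 and 0.0525), without endogenous replicate 3 (0.0510), with the replicate number as a block (0.0671) and on both TPM scales with limma (0.528 with 1 added and 0.212 with 0.1 added).

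Myoz1 (NCBI gene 59011), the fast-fibre calsarcin that links calcineurin to the Z-disc, moved the other way. It had 17, 15 and 30 counts in the MSC-derived libraries, against 0, 4 and 0 in the endogenous libraries. The log2 fold change was 3.77 (SE 1.15, adjusted p = 0.0230). With endogenous counts at or near 0 the size is uncertain, and it was 3.19 without endogenous replicate 1 and 7.36 without endogenous replicate 2. This call was lost without MSC-derived replicates 1, 2 or 3 (adjusted p = 0.0733, 0.0695 and 0.114), without endogenous replicate 3 (0.0647) and with the replicate number as a block (0.0627). Its slow counterpart Myoz2 had 2, 2 and 5 counts against 0, 15 and 8, with overlap. The alpha-actinins cross-link actin in the Z-disc, and both muscle forms were low. Actn2 had 0, 1 and 1 counts against 2, 5 and 3, and Actn3, the fast form, had 1, 3 and 5 counts against 0, 9 and 13. Tcap, which caps titin at the Z-disc, had 6, 3 and 3 counts against 0, 19 and 12. It was not called with all libraries by DESeq2 (adjusted p = 0.412), and without endogenous replicate 1 it was lower by -2.05 (adjusted p = 0.0111).

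Of the 4 genes of calcium handling 1 had enough counts for the main test. Casq1 (NCBI gene 12372), calsequestrin, stores calcium in the sarcoplasmic reticulum of fast fibres. It had 0 counts in all 3 MSC-derived libraries and 67, 11 and 8 counts in the endogenous libraries. Against the floor of 3 counts per library, Casq1 was at least 9.42-fold lower in the MSC-derived cells. Without endogenous replicate 1, which held the most counts, this bound was 3.04-fold. It was left out of the main test by the filter on low counts, and was lower in each of the 6 alternative fits that included it, with adjusted p-values between 0.000122 (DESeq2) and 0.0347. Ryr1, the calcium release channel, had 20, 29 and 31 counts against 0, 17 and 10 counts. The groups did not overlap, and the log2 fold change of 1.49 (SE 1.01) did not pass the test (adjusted p = 0.235). Atp2a1, the fast calcium pump, had 22, 9 and 13 counts against 0, 10 and 9, and Pvalb, parvalbumin, a calcium buffer of fast fibres, had 3, 6 and 6 counts against 0, 1 and 0. Neither was in the main test, and neither was called by DESeq2 (adjusted p = 0.474 for Atp2a1 and 0.111 for Pvalb) or with no filter on low counts (0.443 and 0.0754).

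Among the genes of energy and oxygen supply, Eno3 (NCBI gene 13808), the muscle enolase of glycolysis, had the most counts of all 34 genes. Eno3 had 938, 882 and 905 counts in the MSC-derived libraries, against 528, 494 and 539 counts in the endogenous libraries. The MSC-derived libraries were all higher, and Eno3 rose by 0.73 on the log2 count scale (SE 0.10, adjusted p = 0.000613). In TPM the order was the opposite, with 10.2, 9.81 and 10.9 TPM in the MSC-derived libraries and 18.7, 14.3 and 15.5 TPM in the endogenous ones. On the log2(TPM + 1) scale limma gave -0.60 (adjusted p = 0.00654) and with 0.1 added -0.64 (0.00640), while the median of all genes was shifted by -0.40 and -0.41 on these scales. No direction is therefore given for Eno3 beyond the scale it was read on.

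The effective length that the authors' quantification used for Eno3, worked out from its counts and FPKM after the opposite directions had been seen, was 4645, 4764 and 4637 bases in the MSC-derived libraries and 2390, 2544 and 2438 bases in the endogenous ones. The highest was 1.99 times the lowest. For Des the length stayed between 2874 and 2891 bases over the 5 libraries with at least 1 FPKM, and for Tnni2 between 535 and 550 bases. In RefSeq, the span of Eno3 overlaps that of Pfn1, which encodes the actin-binding protein profilin, by 3675 bases. Pfn1 had a mean of 25952 counts in the MSC-derived and 5837 in the endogenous libraries, a log2 fold change of 2.08 (SE 0.06, adjusted p = 1.77e-07). Whether reads were assigned by strand is not given in the sources used here, and the part of Pfn1 reads in the counts of Eno3 was not tested.

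**Figure D3:**
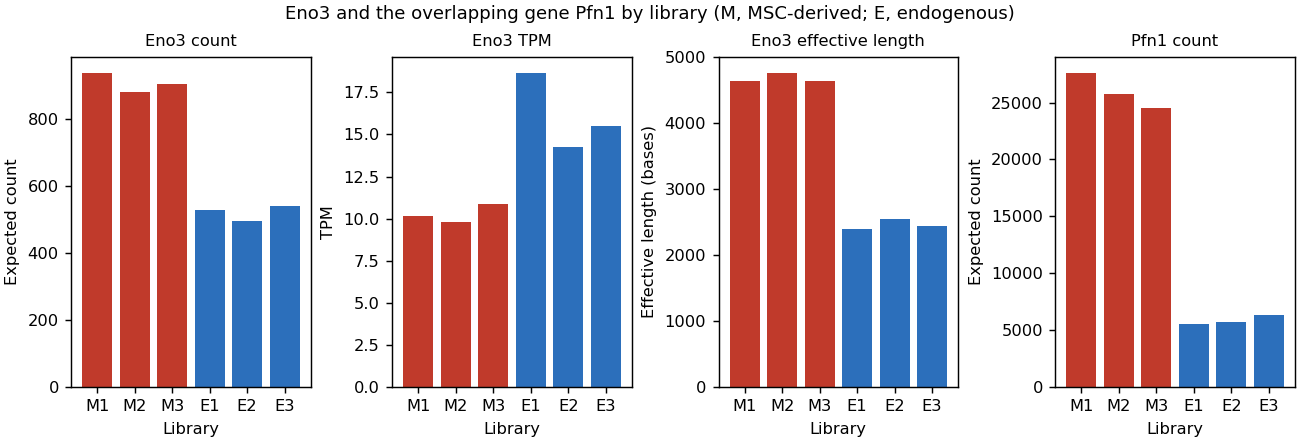
Bars give, for each of the 3 MSC-derived (M) and 3 endogenous (E) libraries, the Eno3 expected count, the Eno3 TPM, the Eno3 effective length in bases and the expected count of the overlapping gene Pfn1. The MSC-derived libraries are higher in counts and length, 4637 to 4764 against 2390 to 2544 bases, and lower in TPM.

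Ckm, the muscle creatine kinase that buffers ATP, had 17, 23 and 16 counts in the MSC-derived libraries, against 24, 5 and 3 in the endogenous ones. Endogenous replicate 1 was the highest of all 6 libraries, and the difference of 0.71 (SE 0.83) did not pass the test (adjusted p = 0.482). Without that library it was 2.07 (adjusted p = 0.00993). Ckmt2, the mitochondrial creatine kinase of muscle, had 0, 6 and 1 counts against 0, 0 and 2. Mb, myoglobin, the oxygen store of muscle, had 1, 2 and 3 counts against 0, 8 and 5. Mb overlaps Apol6, with mean counts of 26.5 and 98.98.

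The same genes were also read by fibre type. The 14 fast-fibre genes summed to 14.8 to 17.6 TPM in the MSC-derived and to 56.4 to 66.7 TPM in the endogenous libraries, where Tnni2 had the highest level. The 7 slow-fibre genes summed to 5.08 to 6.36 TPM and to 5.20 to 6.06 TPM, so that the groups overlapped. Of the 2 tested genes of the slow list, Tnnt1 and Myl2, both were higher in the MSC-derived cells. Of the 5 tested genes of the fast list, 1 was higher and 1 lower. Tnnt1 and Myl2 had enough counts for the test only through the MSC-derived libraries. Their direction is therefore no result about slow genes as a set. Mybpc1, named above as slow, was in neither list. Its log2 fold change with edgeR was -1.79 (adjusted p = 0.281), and -2.43 without endogenous replicate 1 (adjusted p = 0.00207). The other 5 genes of the slow list were too low for the main test. Among them, Myl3 was lower with DESeq2 (adjusted p = 0.0134), and Tnnc1 was lower with edgeR without endogenous replicate 1 (0.00785). Whether the fibre types differed from each other was not tested.

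**Figure D4:**
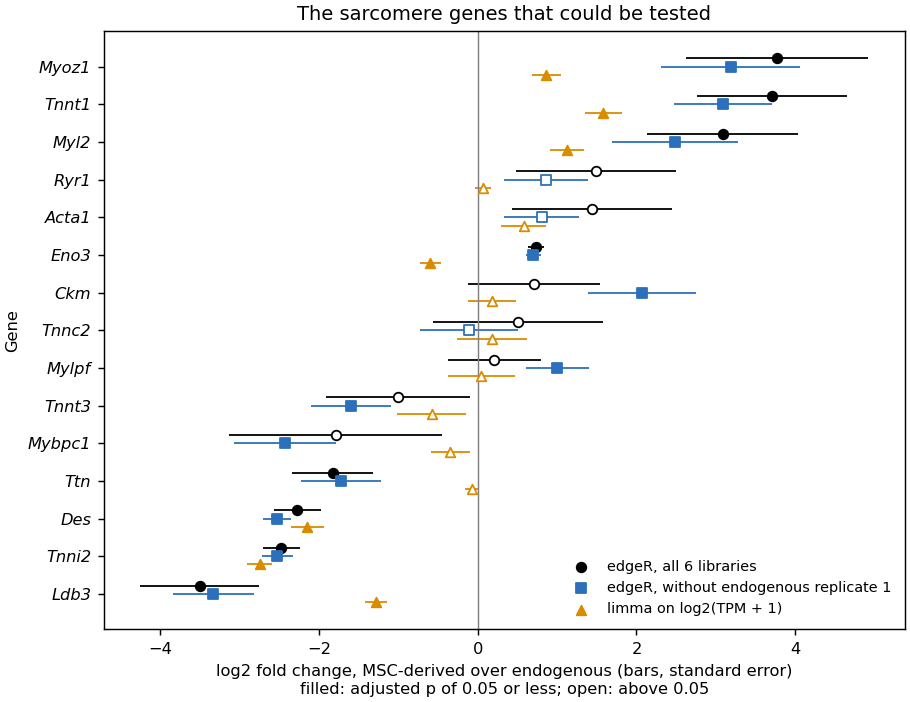
Log2 fold change of the 15 sarcomere genes tested, MSC-derived over endogenous, with standard errors, by edgeR with all 6 libraries (circles), by edgeR without endogenous replicate 1 (squares) and by limma on log2(TPM + 1) (triangles), filled where the adjusted p was 0.05 or less. Tnni2, Des and Ldb3 lie below 0 and filled in all 3, while Eno3 changes side between counts and TPM.

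Relatives or counterparts of these genes that are also expressed outside muscle were far more abundant. They were paired after the values of the sarcomere genes had been seen. In all 10 pairs the paired gene exceeded the sarcomere gene in TPM in every library. Acta1 lay between 0 and 1.66 TPM and Actb, cytoplasmic actin, between 2260 and 6646 TPM. Des lay between 1.19 and 12.0 TPM and Vim, vimentin, between 392 and 1196 TPM. The enzymes showed the same order. Ckm lay between 0.17 and 1.63 TPM and Ckb, the brain-type creatine kinase, between 347 and 445 TPM. Eno3 lay between 9.81 and 18.7 TPM and Eno1, the widespread enolase, between 651 and 954 TPM. The lowest paired gene, the calcium release channel Itpr1, lay between 1.89 and 13.4 TPM, against 0 to 0.11 TPM for Ryr1. The wider list of 19 such genes, all tested, had 7 higher and 9 lower, with Atp2a3, a calcium pump, the most raised (2.22, SE 0.17, adjusted p = 2.12e-05) and the non-muscle heavy chain Myh14 the most lowered (-3.96, SE 0.99, adjusted p = 0.0101).

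Other muscle genes, a further list of 82 of which 73 had a row and 41 could be tested, were read beside the sarcomere genes. There were 25 lower and 5 higher, or 61.0% and 12.2% against 30.3% and 31.3% of all genes tested, and 11 were not called. Their median log2 fold change was -1.27. Smooth muscle markers moved with this list, 9 of the 9 tested lower as given above for Des, and the list holds genes that smooth muscle also uses, such as the tropomyosins Tpm1 (log2 fold change -3.59) and Tpm2 (-2.77). The part of smooth muscle in these counts was not tested. Of other sarcomere genes 8 were lower and 1 higher among 12 tested. Xirp1, an actin-binding protein of cell junctions in muscle, had 17, 2 and 1 counts against 236, 133 and 145 and fell by 4.77 on the log2 scale (SE 0.85, adjusted p = 0.00198). Tpm3, a tropomyosin of slow muscle that many other cells also make, rose by 0.71 (SE 0.07, adjusted p = 7.01e-05).

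Of other genes of excitation-contraction coupling 8 were lower and 7 not called among 15 tested. Hrc, a calcium-binding protein of the sarcoplasmic reticulum, had 3, 16 and 8 counts against 220, 245 and 236 and fell by 4.74 on the log2 scale (SE 0.52, adjusted p = 0.000152). Of other muscle energy genes 5 were lower and 2 higher among 8 tested. Pygm, the muscle glycogen phosphorylase, had 39, 42 and 47 counts against 664, 630 and 518 and fell by 3.89 on the log2 scale (SE 0.21, adjusted p = 3.29e-06). Cox6a2, a cytochrome oxidase subunit of heart and muscle, had 69, 47 and 57 counts against 0, 9 and 5 and rose by 3.52 on the log2 scale (SE 0.92, adjusted p = 0.0121). Gys1, the glycogen synthase of muscle and other tissues, rose by 1.56 (SE 0.36, adjusted p = 0.00652). Both tested genes of embryonic and cardiac isoforms, Tnni3 (2.41, SE 0.41, adjusted p = 0.00150) and Myl4 (0.53, SE 0.20, adjusted p = 0.0499), were higher.

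The 4 tested myogenic factors and cofactors were all lower in the MSC-derived cells. Mef2c, a factor of muscle and of hypertrophic cartilage, fell by 2.19 on the log2 scale (SE 0.09, adjusted p = 8.50e-07). The factors that define the muscle lineage itself were low and not tested. Myod1 had 0 counts in all MSC-derived libraries and 47, 5 and 12 in the endogenous ones. Pax7, the marker of satellite cells, had 5, 26 and 10 counts in the MSC-derived libraries, against 0 in all endogenous ones. Myf5 had 2 counts in MSC-derived replicate 3 and 0 in the other 5 libraries. Of the 12 factors listed, 8 had a row, and Pax3, Myog and Myf6 were not among them, so their levels are not known here.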

How the data were processed

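Bulk RNA sequencing of 3 MSC-derived and 3 endogenous libraries was analysed. The paper gives 3 mice per group and does not state outright that each library came from 1 mouse. Per the study's methods, SOAPnuke cleaned the reads, HISAT2 and Bowtie2 aligned them, and the authors used RSEM to quantify genes. The submitters' processing notes name Bowtie2 2.2.5, RSEM 1.2.12 and the build mm9, and the methods give other versions of these tools. The authors deposited an expected count per gene and library, without normalization. The deposited TPM and FPKM values are corrected for transcript length and library size. Rounding of expected counts to integers altered 20.6% of values, and the test was that of edgeR 4.0.16 under R 4.3.3 (TMM, filterByExpr, glmQLFit, glmQLFTest, no block) with Benjamini-Hochberg adjustment over 14289 genes and a threshold of 0.05. SE is the size of the log2 fold change divided by the square root of F. Effective length is the count divided by FPKM and library total, at 1 FPKM or more. The 6 columns of scaled counts and 8 columns of averages were not used.

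The scripts were tested on simulated data. Limits set on the share of known changes recovered were not met, first overall and then for genes above a low level. They were replaced, after this was seen, by limits on the median estimate, the sign and the share of false calls, which were met. Recovery was poor at the low counts of many sarcomere genes, so that an uncalled difference does not show equal levels.

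All 34 members are named, and of each further muscle or paralog list the called genes with the largest rise and fall and the counts, except 1 gene that is not reported here. Gys1, Mef2c, Tpm1, Tpm2, Myl4, Pax7, Myod1, Myf5, Pfn1, other overlapping genes and the smooth muscle genes named were picked beyond this rule after values were seen, and marker lists are given by counts and summed levels. Members and lists were chosen with earlier results of these data known. Alternatives were DESeq2 1.42.0, other normalizations and filters, a replicate block, a robust fit, limma 3.58.1 on log2(TPM + 1) and log2(TPM + 0.1), a threshold of 0.001 and each library left out. The bound on Casq1 without single libraries was added after the data were seen. Promoters came from RefSeq (GRCm38.p6), a build other than that of the files, and the coordinates printed with the sequences are those of GRCm38.p6. Figures were drawn with matplotlib 3.10.9.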

Additional observations from a re-analysis of the deposited data

How the results depend on the processing

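The 4 lower and 4 higher sarcomere genes were 4 to 9 and 1 to 6 with single libraries left out. In the same fits 3761 to 5686 of all genes were lower and 3672 to 5563 higher. At a threshold of 0.001 on the adjusted p, 2 sarcomere genes were lower and 1 higher, 12 other muscle genes were lower and 1 higher, and 2380 of all genes were lower and 2134 higher. The 5 higher calls among other muscle genes were 3 to 7 with single libraries left out. Eno3 turned from 0.73 to -0.60 and -0.64 on the TPM scales. Mylpf ranged from -0.14 to 1.01 and Tnnc2 from -0.11 to 1.07 with single libraries left out. With the replicate number as a block, 2 sarcomere genes were higher and 3 lower, or 13.3% and 20.0%, beside 28.7% and 27.4% of all genes. Same-numbered libraries come from different mice and share only a number. The correlations of their deviations from the group means were 0.0131, 0.00216 and 0.0178. Each MSC-derived library correlated best with its own number, and endogenous replicate 2 did not. Of the comparisons of single genes with an alternative, 208 kept direction and side of the threshold, 20 lost the call, 4 gained it and 5 reversed. The cause of these changes was not tested, although leaving out a library by itself lowers the number of samples. Counts of at most 10 in every library limit 9 sarcomere genes, and for others, such as Mylpf, the spread between the endogenous libraries was wide.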
